A study of Mus musculus with 2 samples.

Results

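A set of imprinted-locus miRNA genes that lie outside the large Dlk1-Dio3 cluster was followed in adult mouse cortex: Mir296 and Mir298 near Gnas, Mir335 in Mest, Mir483 in Igf2 and Mir675 in H19. They were chosen by gene symbol, through the Ensembl identifier of each entry in the count tables, and make up 5 of the 2202 miRNA genes counted. Left cerebral cortex was taken from 2 females of B6CASTF1/J, a first-generation hybrid strain, at 2 months of age and with no treatment named. Each animal gave 1 microRNA-seq library of RNA below 30 nucleotides, and the animals are called animal 1 and animal 2 after their biological replicate numbers. They form a single group, so there was no condition to compare and no p-value was computed. They were taken as 2 animals because the labels number the females separately and call the libraries biological replicates. The labels also give both the same donor identifier, so they do not settle whether the tissue came from 2 animals or 1, and n = 2 counts libraries. Any difference between them joins animal, dissection and library preparation.

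Genomic imprinting silences 1 parental copy of a gene, so that a transcript comes mainly from the mother's or the father's chromosome. Mest, a hydrolase-fold protein gene, and Igf2, a fetal growth factor gene, are expressed from the paternal copy in many but not all tissues. H19, a long noncoding RNA, is expressed from the maternal copy. Which copy is used in the tissue studied here was not measured. The Gnas locus encodes the stimulatory G protein alpha subunit, and Nespas is its paternally expressed antisense transcript. miRNAs cut from such transcripts base-pair with messenger RNAs mainly through the seed, bases 2 to 8 of the mature strand. Reads of the maternal and paternal alleles are pooled in the counts, which therefore give a gene's level and not its imprinting. Whether reads of both alleles mapped equally well was not tested.

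The mature sequences are shown because a count at a gene joins reads of both arms of its hairpin. They are from RefSeq (GRCm38.p6, the same assembly as mm10), written 5′ to 3′ with the seed in capitals, and all 5 genes were matched.
miR-296-5p: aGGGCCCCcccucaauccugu
miR-296-3p: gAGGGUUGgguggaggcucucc
miR-298-5p: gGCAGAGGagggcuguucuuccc
miR-298-3p: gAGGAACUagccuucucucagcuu
miR-335-5p: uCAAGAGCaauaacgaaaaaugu
miR-335-3p: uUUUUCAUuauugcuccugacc
miR-483-5p: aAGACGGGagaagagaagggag
miR-483-3p: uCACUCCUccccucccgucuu
miR-675-5p: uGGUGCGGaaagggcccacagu
miR-675-3p: cUGUAUGCccuaaccgcucagu
No seed was shared among these 10 arms, and none occurred in any other of the mature miRNAs in that RefSeq table. The arms ran from 21 to 24 nucleotides, so no length term was used when levels were set side by side. Other effects of sequence on how well an miRNA is captured in a library were not tested. Fold differences between genes are therefore differences of counts. The Mir335 arms were the poorest in G and C, at 30.4% for miR-335-5p and 36.4% for miR-335-3p. The arms of the other 4 genes lay between 50% (miR-298-3p) and 68.2% (miR-296-3p). No hairpin of the 5 shared a stretch of 22 bases with another miRNA hairpin in the tables that had a sequence (968 genes). In the GENCODE transcripts each arm matched only its own gene, except that the Mir675 arms also matched H19, the transcript they are cut from.

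Positions are on mm10 with the GENCODE M21 annotation. Mir296 (ENSMUSG00000065521.1) lies on chromosome 2 at 174267047 to 174267125 and Mir298 (ENSMUSG00000065410.1) at 174267504 to 174267585, both on the minus strand with 378 bases between them. No annotated gene overlapped either. The 3′ end of Nespas, on the same strand, lies 13.7 kb from Mir298 and 14.1 kb from Mir296, and Gnas begins 16.7 kb from Mir298 on the opposite strand. Mir335 (ENSMUSG00000065501.1) lies in an intron of Mest on chromosome 6 at 30741299 to 30741396, plus strand. Mir483 (ENSMUSG00000070140.1) lies in an intron of Igf2 on chromosome 7 at 142654924 to 142654996, minus strand, and also within the protein-coding model Gm49394. Mir675 (ENSMUSG00000076275.1) lies in an exon of H19 on chromosome 7 at 142577064 to 142577147, minus strand, 77.8 kb from Mir483.

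Animal 1 had 4415759 reads counted at miRNA genes and animal 2 had 2279562. The unit of level is CPM, counts per 1000000 counts at all miRNA genes of that library. Unmapped reads were 23.4% of all reads in animal 1 and 47.1% in animal 2. Cortex markers were present, with 6 of 9 neuron genes at 2 CPM or more in both animals. The 3 copies of Mir124a, a neuron miRNA, had at most 11 counts each. Reads that map to several places are not in the gene counts, so these low counts do not give the level of the miRNA. The part of such reads in them was not tested. Of 6 striated muscle markers, 5 had 0 counts in both animals, and Mir206 was detected at 23.6 and 16.2 CPM in animals 1 and 2. The liver marker Mir122 was also detected, at 60.9 and 36.8 CPM. Intervals cover counting error only and treat each read as an independent count. The libraries carry no stated molecular identifiers, so PCR copies may be counted more than once and the intervals may be too narrow.

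Of the 5 genes, 4 were detected, that is at 2 CPM or more in both animals, against 18.8% of all miRNA genes counted. Mir335 led on average, followed by Mir298, Mir296 and Mir483, and Mir675 had no count at all. Their summed share of counts was 0.332% in animal 1, with an exact Clopper-Pearson 95% interval of 0.326 to 0.337%. In animal 2 it was 0.471% (0.463 to 0.480%), and the mean of both was 0.402% ± 0.0988 (SD, n = 2). No read was counted on the opposite strand at any of the 5, so the counts with and without regard to strand were identical.

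**Figure D1:**
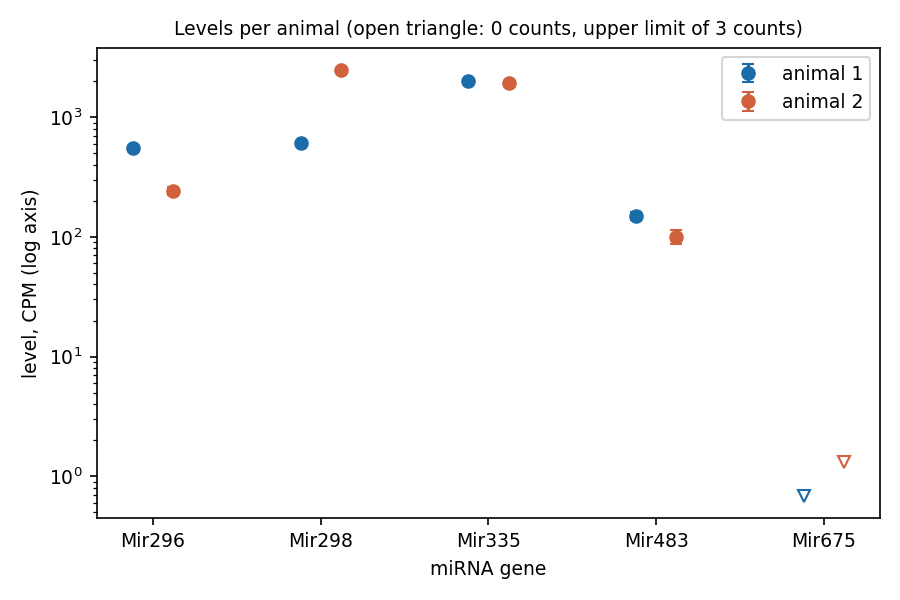
Level of each gene in CPM (log axis) in animal 1 and animal 2, with exact Poisson 95% intervals for the count. Open triangles mark 0 counts and are drawn at a floor of 3 counts per library. Mir335 sits at 2006 and 1924 CPM, Mir296 and Mir298 move in opposite directions, and Mir675 lies at the floor in both.

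Mir335 was steady between the animals. Its host Mest, also called Peg1, is known for its role in growth and maternal behaviour. Mir335 had 8856 counts in animal 1 and 4386 in animal 2, or 2006 CPM (exact Poisson 95% interval 1964 to 2048) and 1924 CPM (1868 to 1982). The mean was 1965 ± 57.6 CPM (SD, n = 2). It was the 64th most abundant miRNA gene in animal 1 and the 70th in animal 2. The log2 ratio of animal 1 over animal 2 was 0.06 (counting interval 0.01 to 0.11). This ratio cleared counting error narrowly, yet 89.9% of the detected genes differed more between the animals.

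Mir298 was the member with the largest difference between animals. It had 2697 counts in animal 1 and 5580 in animal 2, so the shallower library held more reads of it. Its level was 611 CPM (588 to 634) in animal 1 and 2448 CPM (2384 to 2513) in animal 2, a 4.01-fold difference. The log2 ratio of animal 1 over animal 2 was -2.0 (counting interval -2.07 to -1.94), and 97.3% of detected genes differed less. It moved from the 114th place among miRNA genes in animal 1 to the 60th in animal 2. With a mean of 1529 ± 1299 CPM (SD, n = 2), its average says little about either animal.

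Mir296, its neighbour on the same strand, went the other way. It had 2435 counts in animal 1 and 550 in animal 2. These gave 551 CPM (530 to 574) and 241 CPM (222 to 262), a level 2.29-fold higher in animal 1, with a mean of 396 ± 219 CPM (SD, n = 2). The log2 ratio of animal 1 over animal 2 was 1.19 (counting interval 1.06 to 1.33), and 91.1% of detected genes differed less. Mir296 took the 118th place in animal 1 and the 159th in animal 2.

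The opposite differences can be read from the counts without any scaling. In animal 1 the 2 neighbours were nearly level, with 1.11 counts at Mir298 for each count at Mir296 (exact 95% interval 1.05 to 1.17). In animal 2 there were 10.1 counts at Mir298 for each at Mir296 (9.29 to 11.1). The ratio between the neighbours thus differed 9.16-fold between the libraries. Their hairpins are printed with both mature arms in capitals because the 2 genes are close but not copies: the longest stretch they share is 7 bases.
Mir296: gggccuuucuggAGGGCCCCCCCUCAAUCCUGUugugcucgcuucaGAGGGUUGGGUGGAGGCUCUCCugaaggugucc
Mir298: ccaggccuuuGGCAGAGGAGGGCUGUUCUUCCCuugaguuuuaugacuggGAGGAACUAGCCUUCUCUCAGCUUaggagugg
The Mir296 hairpin was 63.3% G and C and the Mir298 hairpin 53.7%, where the median of the 352 detected genes with a hairpin sequence was 52.2%. Their predicted folding energies were close, at -43.2 kcal/mol for Mir296 and -42.7 kcal/mol for Mir298.

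To see how far neighbours usually part, all pairs of detected miRNA genes on the same strand with under 10 kb between them were listed, a comparison chosen after the values of Mir296 and Mir298 were known. There were 385 such pairs among 146 genes, of which 309 lay within Dlk1-Dio3, and many share a gene with another pair. The log2 ratios of Mir296 and Mir298 lay 3.20 apart, the widest of the 385 pairs. The median pair lay 0.49 apart, and the next widest, Mir487b and Mir539 of Dlk1-Dio3, lay 2.55 apart. Mir296 and Mir298 also came first among the 84 pairs with a gap under 1 kb and the 76 pairs outside Dlk1-Dio3. They were first too among the 104 adjacent pairs, those with no other detected miRNA gene between them on that strand. Opposite calls as such were not rare: in 110 of the 385 pairs (28.6%) 1 gene was higher in animal 1 and the other in animal 2 beyond counting error. This describes 2 libraries and has no replicate check.

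**Figure D2:**
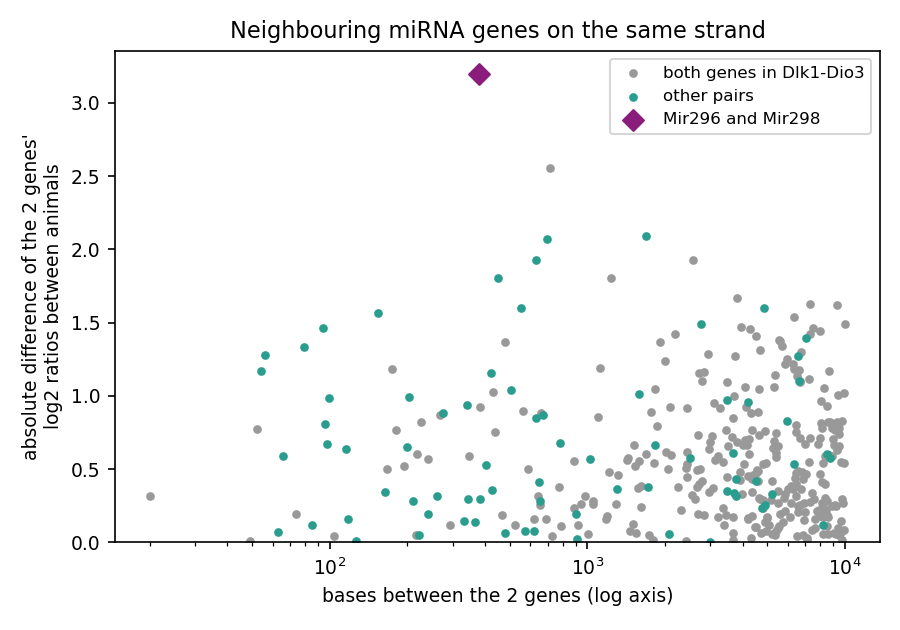
Each point is a pair of detected miRNA genes on the same strand, plotted by the bases between them (log axis) and by the absolute difference of their log2 ratios between the animals. Mir296 and Mir298, 378 bases apart, lie highest at 3.20, above the next pair at 2.55.

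Mir483 was the lowest of the 4 detected members, though above the median detected gene in both animals (75.6 and 81.2 CPM), and it was higher in animal 1. Igf2, in whose intron it lies, is made in adult brain mainly by the choroid plexus and the meninges. Mir483 had 658 counts in animal 1 and 229 in animal 2, or 149 CPM (138 to 161) and 100.5 CPM (87.9 to 114). The mean was 125 ± 34.3 CPM (SD, n = 2). The log2 ratio of animal 1 over animal 2 was 0.57 (counting interval 0.35 to 0.79), and 69.6% of detected genes differed less. It held the 178th and the 198th place. The 8 choroid plexus and ciliated epithelium markers, all detected, summed to 705 and 1103 CPM in animals 1 and 2, the opposite order. Much of that rise was Mir34c, at 48.2 and 368 CPM, and the markers were mixed. Beyond counting error, Mir34c, Mir34b and Mir204 were higher in animal 2 and Mir429, Mir200a and Mir200b in animal 1. Mir211 and Mir449a lay inside it. Among them Mir204, a choroid plexus miRNA, had 480 and 652 CPM, while the epithelial Mir429 had 66.8 and 32.9 CPM. The part of these cells in the Mir483 level was not tested.

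Mir675 was not detected at this depth. It is cut from H19 and is best known from the placenta, where it restrains growth. Its count was 0 in both animals, which allows up to 0.679 and 1.32 CPM in animals 1 and 2 (3 counts per library). A count of 0 was common, since 66.1% of all miRNA genes had 0 in both animals. Set against the floor of 3 counts, Mir483, the other member on chromosome 7, was 219-fold higher in animal 1 and 76.3-fold higher in animal 2. These folds use the Mir483 count without its interval and are not exact lower bounds. The Mir675 hairpin was 63.1% G and C, and its predicted folding energy of -0.67 kcal/mol per base was more stable than that of 98.6% of the 352 detected genes with a hairpin sequence. Of 9 pluripotent or placental markers, none was detected and 5 had 0 counts in both animals, so these markers too were at or near 0.

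The order of the 4 detected genes was not the same in both animals. In animal 1 Mir335 exceeded Mir298 3.28-fold, whereas in animal 2 Mir298 exceeded Mir335 1.27-fold. The means of these 2 genes therefore did not differ beyond the spread between animals. Mir298 exceeded Mir296 in both animals, narrowly in animal 1, but the SD of Mir298 was larger than the gap between their means. Mir296 exceeded Mir483 3.70-fold in animal 1 and 2.40-fold in animal 2. Mir335 exceeded Mir483 13.5-fold and 19.2-fold.

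**Figure D3:**
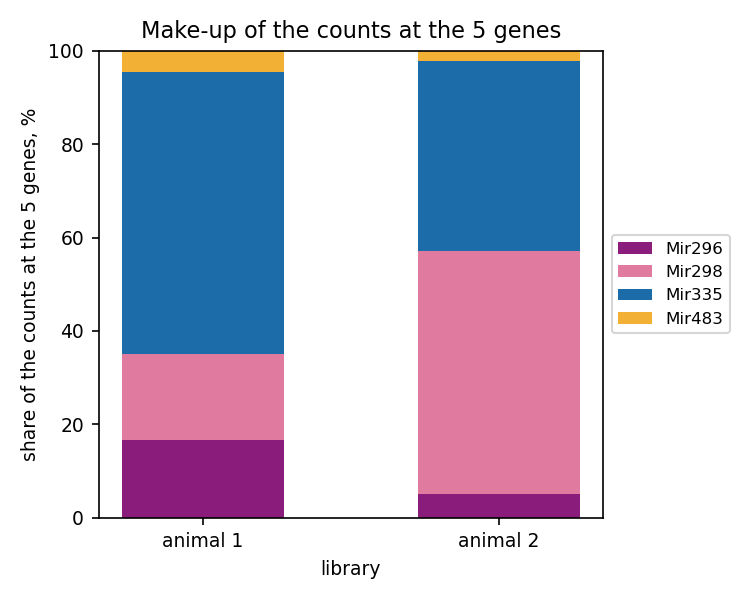
Share of the counts at the 5 genes that each gene took, in percent, in animal 1 and animal 2; Mir675 had no counts. Mir298 made up 18.4% in animal 1 and 51.9% in animal 2, while Mir335 made up 60.5% and 40.8% and Mir296 16.6% and 5.12%.

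Read as a group, the members did not move together between the animals. Of the 4 detected genes, 3 were higher in animal 1 beyond counting error (27.0% of all detected genes were) and 1 was higher in animal 2 (29.6% of all). In either direction 4 of 4 lay beyond counting error, against 56.6% of detected genes and 85.0% of those whose mean was at least 100 CPM, the range all 4 belong to. Their median absolute log2 ratio was 0.88, beside 0.34 over all detected genes. A log2 ratio beyond 1 in either direction was found for 2 of the 4 members and for 13.5% of detected genes. Several whole-library values also differed between the animals, and their part in these differences was not tested. Summed vascular markers (3 of 3 detected) were 11469 and 15155 CPM in animals 1 and 2, and summed erythroid markers (3 of 3 detected) 459 and 91.2 CPM. Much of the erythroid difference was Mir451a, at 385 and 43.9 CPM. Mir144 was also higher in animal 1 beyond counting error, while Mir486, at 33.5 and 38.2 CPM, lay inside it. The summed neuron markers were 55542 and 102132 CPM, of which Mir132, an activity-induced miRNA, made up 24389 and 79576 CPM. A further sum left Mir132 out, a choice made once its level was known. Over the other 8 neuron markers the sum went the other way, at 31153 CPM in animal 1 against 22557 CPM in animal 2. Taken singly, 4 markers cleared counting error in that direction, while Mir138-1, at 4329 and 5025 CPM, cleared it in favour of animal 2. The 3 Mir124a copies, none of them detected, lay inside it.

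**Figure D4:**
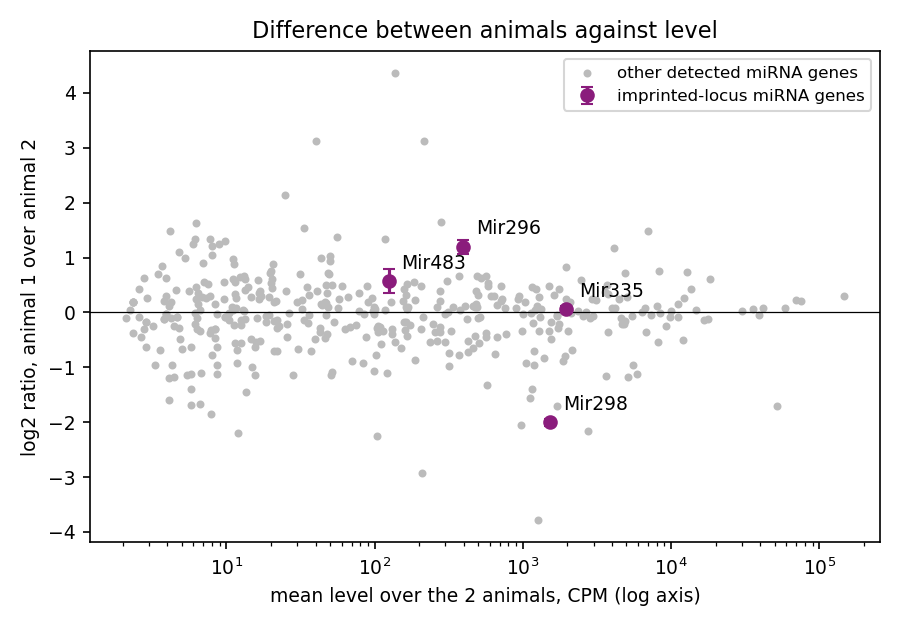
Log2 ratio of animal 1 over animal 2 against the mean level in CPM (log axis) for the 415 detected miRNA genes, with the 4 detected members in colour and their counting intervals. Mir335 lies close to the zero line at 0.06, Mir296 at 1.19 and Mir298 at -2.0.

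The other imprinted miRNA clusters framed these levels. Between Dlk1 and Dio3, 53 of 67 miRNA genes were detected, and their median level was 425 and 444 CPM in animals 1 and 2. By mean level, Mir335 stood above 39 of those 53 genes, Mir298 above 36, Mir296 above 25 and Mir483 above 17. No detected Dlk1-Dio3 gene differed between the animals as much as Mir298: all 53 had a smaller absolute log2 ratio, and 52 had a smaller one than Mir296. Only 8 had a smaller one than Mir335. The leading gene there, Mir127, reached 74548 and 63978 CPM. Inside Sfmbt2, the host of a large rodent miRNA cluster, 7 of 119 genes were detected and 106 had 0 counts in both animals. Its leading gene, Mir467d, had 680 CPM and 484 CPM, above Mir296 and below Mir335 in each animal. The 119 genes together took 0.132 and 0.139% of the counts, less than the 5 members. Reads that map to several places are not in these counts, and many Sfmbt2 genes are numbered copies, such as Mir467a-1 and Mir467a-2. The part of such reads in the Sfmbt2 zeros and share was not tested.

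At their own loci the members stood nearly alone. Within 500 kb of Mir296 and Mir298 the tables listed Gm27591, with 0 counts in both animals. Within 500 kb of Mir335 lay Mir29a and Mir29b-1, about 321 to 322 kb away. Mir29a had 8412 and 10012 CPM in animals 1 and 2, and Mir29b-1 had 31.7 and 69.8 CPM, so both were higher in animal 2, unlike Mir335. No other miRNA gene of the tables lay that close to Mir483 or Mir675.

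The genes most like each member were sought by the distance between their log2(CPM + 1) values over the 2 libraries, which with 2 values describes level more than pattern. Mir369 lay closest to Mir335 (distance 0.07), with 2078 and 1992 CPM, followed by Mir346 (0.14). Closest to Mir298 were Mir107 (0.40), with 798 and 2613 CPM, and Mir219a-2 (0.56), with 634 and 1667 CPM. Mir28a (0.37) and Mir1306 (0.57) were nearest to Mir296, and Mir30c-1 (0.29) and Mir412 (0.37) to Mir483. Since these genes were picked by the same 2 values, the direction of their difference between the animals was largely set by the choice.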

How the data were processed

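The authors deposited 1 table of raw, unnormalized counts per library. The text metadata deposited with each table names the build mm10 and the annotation GENCODE M21. The aligner, trimming and read filters were not given in the sources used here. Reads that map to several places are tallied in a summary entry of their own and enter no gene count. For animal 1 this entry held 37.4% of the reads, and for animal 2 it held 25.5%. Of 3 unlabelled count columns, the read-strand column was used, its role read from the values. The 4 summary entries were left out of library totals.

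CPM used the sum of gene counts; 2 CPM equalled 8.83 counts in animal 1 and 4.56 in animal 2. A gene was beyond counting error when the Clopper-Pearson 95% interval of its animal 1 count, as a share of both counts, excluded animal 1's share of the library totals (SciPy 1.17.1, tested on simulated data). Ratios carry no pseudocount. Folding energies came from ViennaRNA 2.7.2. Alternatives were edgeR 4.0.16 TMM scaling, DESeq2 1.42.0 size factors, totals without the most abundant gene, the unstranded column, other detection limits and pseudocounts, and leaving out either animal. Named genes were all members, the 2 nearest genes of each detected member, genes sharing a seed with a member, genes within 500 kb, the leading gene of each other cluster and the markers. The members and lists were chosen with earlier results of these data known.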

Additional observations from a re-analysis of the deposited data

How the results depend on the processing

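With 2 libraries, taken as 1 per animal, no difference between the animals has a replicate check, and depth limits what can be said of Mir675. No paired analysis was possible because there was a single group. The 4 detected members kept the direction of their ratio under 7 alternatives each (TMM, DESeq2 size factors, totals without Mir139, the unstranded column and 3 pseudocounts). The log2 ratio ran from 1.18 to 1.25 for Mir296, -2.01 to -1.95 for Mir298, 0.06 to 0.11 for Mir335 and 0.55 to 0.62 for Mir483. All 4 stayed beyond counting error under the 3 other scalings, and 4 stayed detected at 10 CPM, at 1 count in either library and in either animal alone. Leaving out an animal gave a summed share of 0.332 to 0.471%. The mean level of Mir335 moved beyond its small SD to 2304 CPM without Mir139 in the totals and to 2100 CPM with the unstranded column. A pseudocount of 1 and the other sets of neighbouring pairs were chosen after seeing the data.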

Other observations

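After Mir296 and Mir298 came the next 13 pairs of neighbouring miRNA genes by the gap between their log2 ratios. In 10 of them 1 gene was higher in animal 1 and the other in animal 2 beyond counting error. Over all 385 pairs the share was 28.6%, and ranking by the gap itself favours opposite calls. The 6 of these 13 pairs that lie in Dlk1-Dio3 also share genes with each other. Mir487b and Mir539 of Dlk1-Dio3 had log2 ratios of -1.18 and 1.37, Mir501 and Mir362 of -1.32 and 0.60, and Mir377 and Mir409 of -1.10 and 0.83. Pairs with a shared direction were also among them. Mir429 and Mir200b, epithelial miRNAs of a shared cluster, were both higher in animal 1, at 1.02 and 3.12, and Mir34c and Mir34b, miRNAs of multiciliated cells, both higher in animal 2, at -2.93 and -1.12. These pairs were picked after their values were seen and are given as values only.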
